A study of Mus musculus with 18 samples.

Results

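The interferon response and interferon receptor genes examined here are 35 genes of the interferon pathway, chosen by name: the receptor chains and their kinases, the transcription factors downstream of them, antiviral effectors, and genes of chemokine signalling and antigen processing. Each gene was read at the brightest probe set annotated to that gene alone. Of the 35 genes, 33 could be read in this way. Isg15 was read only by a probe set that carries several gene names, and no probe set was listed for Ifi44, so neither is described by expression. Of the 33, 28 passed the filter on low signals and entered the tests, among 22518 probe sets tested of 45101 on the array.

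The arrays came from mouse ovarian follicles cultured with anti-Müllerian hormone (AMH), a hormone that granulosa cells of growing follicles secrete. Preantral to small antral follicles were dissected from C57BL/6Ntac female mice of 6 to 8 weeks, pooled from 7 mice, and cultured in single drops of medium holding 80 IU/L follicle-stimulating hormone and 10 IU/L luteinising hormone, which all groups received. Each pool was divided over 3 doses of recombinant AMH, and RNA was taken after 24 h or 12 h, so that the groups were AMH at 200 ng/mL for 24 h, AMH at 50 ng/mL for 24 h, vehicle for 24 h, and the same 3 for 12 h, with 3 replicates each and 18 arrays in all. From each sample 5 ng of RNA was amplified and hybridised to an Affymetrix mouse array. The replicates of a time were different pools, and an AMH array was compared with the vehicle array of its own pool. The free-text descriptions of the 12 h AMH samples name 24 h, whereas their titles and source names give 12 h, which was used.

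Type I interferons signal through the receptor chains Ifnar1 and Ifnar2, and interferon gamma through Ifngr1 and Ifngr2; both act through Janus kinases that phosphorylate STAT proteins. The interferon-stimulated response element (ISRE), bound by a complex that holds Stat2 and Irf9, and the gamma-activated sequence (GAS) lie in the promoters of many antiviral and antigen-processing genes. In the ovary, macrophages in and around follicles are among the cells that carry this pathway, while AMH itself signals through a receptor of granulosa cells and SMAD proteins.

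The array of replicate 3 of AMH 50 ng/mL at 12 h stood apart and entered no comparison. Its log2 values correlated with those of the other arrays at 0.604 to 0.624, whereas the other 17 correlated with each other at 0.904 to 0.992. On that array Ifngr1 read 13.6, Ifnar2 8.70, Jak2 2.70 and Ifi35 4.79, all below the lowest of the other 17 arrays, while Psmb9 read 1860.0 and Jak1 2968, both above the highest. Its member median was -0.79 on the log2 scale relative to the vehicle array of its pool, beside -0.68 over all probe sets tested. The array of replicate 3 of AMH 200 ng/mL at 12 h was also unlike the others: its differences from vehicle had an SD of 0.838 over all probe sets, against 0.402 and 0.325 in the other pools of that dose and time. All 7 granulosa markers measured were above the filter, and so were 9 of 13 macrophage and leukocyte markers, among them Csf1r, Tyrobp and Lyz2, whereas Ptprc, C1qa, Adgre1 and Aif1 were below it. None of the 5 lymphocyte markers was above the filter, with a summed signal of 11.7 to 46.3 over the 17 arrays.

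Promoters are shown for genes picked by their values in these arrays, so that their interferon elements can be described. No link between these elements and the values was tested. These genes are Ifit1, Ifit3 and Rsad2, which shared 1 very high array, and Bst2 and Psmb9. For Bst2 and Psmb9 every array of 24 h read higher than every array of 12 h, without the array that stood apart. So did 5.11% of all probe sets, and neither gene passed the threshold in the vehicle arrays. The windows searched ran from 250 bases before to 50 bases after each annotated start (RefSeq, GRCm38.p6); the 250 bases before the start are printed 5′ to 3′ on the gene's strand, with every match to the ISRE core in capitals. That core was taken as GAAA, any 2 bases and GAAA, and on the other strand as TTTC, any 2 bases and TTTC. Ifit1 lies at chr19:34640639-34640888 (plus strand), Ifit3 at chr19:34583279-34583528 (plus strand), Rsad2 at chr12:26456453-26456702 (minus strand), Bst2 at chr8:71537473-71537722 (minus strand) and Psmb9 at chr17:34187331-34187580 (minus strand).
Ifit1: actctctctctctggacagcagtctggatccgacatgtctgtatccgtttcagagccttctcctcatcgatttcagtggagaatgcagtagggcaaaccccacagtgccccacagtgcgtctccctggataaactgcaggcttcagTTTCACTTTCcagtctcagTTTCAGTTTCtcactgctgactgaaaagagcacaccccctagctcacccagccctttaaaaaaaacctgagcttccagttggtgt
Ifit3: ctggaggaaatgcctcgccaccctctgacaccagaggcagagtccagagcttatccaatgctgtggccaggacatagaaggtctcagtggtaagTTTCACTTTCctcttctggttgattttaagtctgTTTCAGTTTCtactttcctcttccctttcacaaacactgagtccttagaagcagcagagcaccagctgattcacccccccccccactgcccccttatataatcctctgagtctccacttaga
Rsad2: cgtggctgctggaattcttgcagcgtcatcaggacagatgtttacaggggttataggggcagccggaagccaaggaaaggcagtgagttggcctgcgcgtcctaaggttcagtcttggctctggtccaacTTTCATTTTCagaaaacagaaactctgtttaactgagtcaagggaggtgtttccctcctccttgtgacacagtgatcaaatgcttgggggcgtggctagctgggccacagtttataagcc
Bst2: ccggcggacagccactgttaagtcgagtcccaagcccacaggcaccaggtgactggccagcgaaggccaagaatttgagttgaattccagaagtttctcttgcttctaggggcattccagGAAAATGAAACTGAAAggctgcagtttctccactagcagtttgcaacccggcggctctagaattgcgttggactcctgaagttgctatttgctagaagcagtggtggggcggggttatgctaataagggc
Psmb9: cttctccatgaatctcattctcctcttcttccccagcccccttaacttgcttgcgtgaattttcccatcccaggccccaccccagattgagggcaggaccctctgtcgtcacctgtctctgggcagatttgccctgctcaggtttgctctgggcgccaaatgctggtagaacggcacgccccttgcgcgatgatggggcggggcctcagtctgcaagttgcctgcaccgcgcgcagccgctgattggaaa

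Ifit1 and Ifit3 each held 2 ISRE cores in this stretch, Rsad2 held 1, and the 2 in Bst2 overlapped each other. Psmb9 held none, and its 300-base window overlapped that of Tap1, on the opposite strand, by 275 bases. Over all 31 members with a window, 13 (41.9%) held the ISRE core on either strand, against 3.99% of 27025 genes. The GAS letters TTCNNNGAA, which read alike on both strands, were in the windows of 12 members (38.7%), against 9.55% of genes. In Bst2 the GAS letters lay at -136 to -128 from the start and overlapped the first ISRE core, at -130 to -121. Mx1, Mx2, Usp18 and Rtp4 were not matched to a window. A match of letters is a description of the window and not evidence that a factor binds there.

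After 24 h, neither AMH dose moved any of the 28 genes past the threshold. At 200 ng/mL against vehicle 0 of 22518 probe sets (0%) passed an adjusted p of 0.05 in limma, which was also the count of members, and 374 probe sets and 1 member had an unadjusted p under 0.05. The member median was -0.06 on the log2 scale, with pool medians of -0.09, -0.18 and 0.08, and 18 of 28 estimates were below 0, beside 46.6% of all probe sets and an all-probe-set median of 0.01. Without the pool of replicate 3 the member median was -0.17. Lower in every pool were 5 members, beside 11.9% of all probe sets, and higher in every pool were 3, beside 15.7%. At 50 ng/mL against vehicle the counts past the threshold were again 0 of 22518 (0%) and 0 of 28, with 607 probe sets and 0 members at an unadjusted p under 0.05. There the member median was 0.08, the pool medians were 0.07, 0.23 and -0.02, and 5 of 28 estimates were below 0, beside 51.3% of all probe sets. This direction turned without the pool of replicate 2, where 16 of 28 were below 0 with a median of -0.05, and with array weights, where 18 of 28 were below 0 with a median of -0.04. Here 2 members were lower in every pool, beside 12.2%, and 4 were higher in every pool, beside 10.8%. For each dose the pool medians lay on both sides of 0, and their SD was 0.129. Macrophage and leukocyte markers summed to 518 to 1392 in the AMH 200 ng/mL arrays, 627 to 1543 in the AMH 50 ng/mL arrays and 1141 to 2653 in the vehicle arrays of 24 h. Surface epithelium markers, all 6 above the filter, summed to 1479 to 1894 with AMH 200 ng/mL, 1545 to 1805 with AMH 50 ng/mL and 1960.1 to 4088 with vehicle. Both sums were lower than vehicle in every pool at each dose, those of surface epithelium without overlap, and their part in the member values was not tested. In pooled follicles fewer cells of a type and less RNA per cell cannot be told apart.

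**Figure D1:**
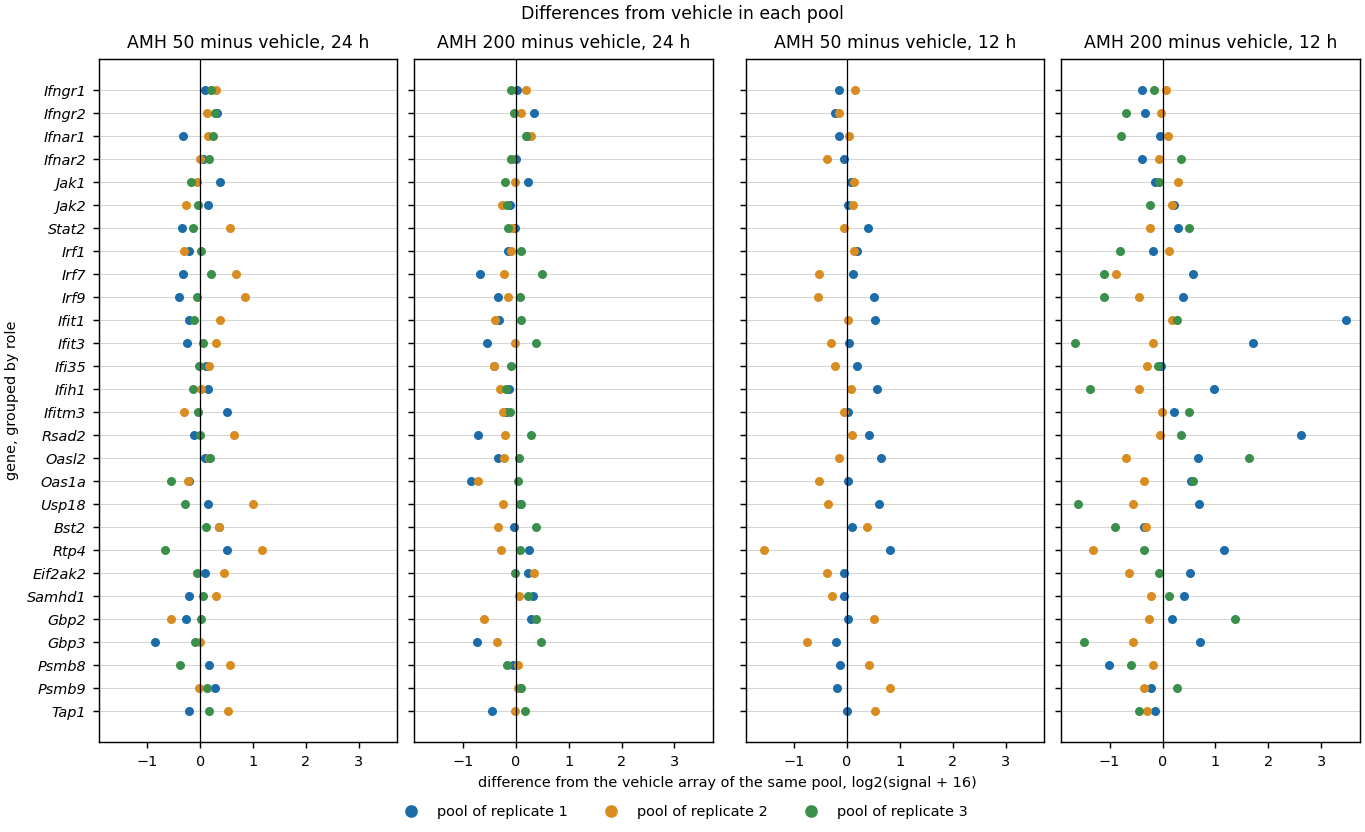
Difference of each AMH array from the vehicle array of its own pool, on the log2(signal + 16) scale (x axis), for the 28 tested genes (rows, grouped by role). Panels run by dose within 24 h and then 12 h; points are single pools coloured by replicate, and the array that stood apart is not drawn. At 24 h the points lie between -0.85 and 1.18, and the widest point of all is Ifit1 in the pool of replicate 1 at AMH 200 ng/mL for 12 h, at 3.47.

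Among the receptors and kinases, the estimates of AMH 200 ng/mL against vehicle at 24 h ran from -0.18 to 0.23 over 6 genes, 4 of them above 0. Ifnar1, the chain that starts type I signalling together with Ifnar2, had signals of 253, 279 and 262 in the AMH 200 ng/mL arrays and 216, 226 and 229 in the vehicle arrays, which did not overlap. The share of all probe sets without overlap was not counted between doses, but 15.7% were higher in every pool, as Ifnar1 was. The Ifnar1 difference was 0.23 ± 0.19 (SE) with an adjusted p of 1.00, and it read 169, 251 and 275 at 50 ng/mL, on both sides of the vehicle values. The dimmer Ifnar1 probe set read 40.9, 73.9 and 41.1 with AMH 200 ng/mL and 47.2, 30.8 and 45.9 with vehicle, lower in replicates 1 and 3. Jak2, the kinase of the interferon gamma receptor, had 341, 394 and 332 in the AMH 200 ng/mL arrays and 371, 474 and 376 in the vehicle arrays. It was lower in all 3 pools, the groups overlapped, and the difference was -0.18 ± 0.13 (adjusted p = 1.00). The dimmer Jak2 probe set read 72.8, 82.1 and 70.7 with AMH 200 ng/mL and 69.1, 92.8 and 63.8 with vehicle, higher in replicates 1 and 3. Ifnar2 had 608, 602 and 646 with AMH 200 ng/mL and 604, 641 and 691 with vehicle. Jak1, which serves both receptors, had 795, 778 and 715 and 677, 783 and 828 in the same groups. For both genes the groups overlapped.

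Ifngr2, the signalling chain of the interferon gamma receptor, was read by a pair of probe sets that did not move together. The brighter had 619.6, 666 and 622 in the AMH 200 ng/mL arrays and 487, 620.1 and 639 in the vehicle arrays of 24 h, which overlapped, with a difference of 0.13 ± 0.14 (SE). The dimmer had 31.1, 22.7 and 18.5 in the AMH 200 ng/mL arrays, all below the 95.5, 73.1 and 58.7 of the vehicle arrays. Its difference was -1.19 ± 0.19, the unadjusted limma p was 2.72e-05, and the adjusted p of 0.613 was the smallest of the 22518 in this comparison but did not pass. At 50 ng/mL the dimmer probe set read 74.6, 65.0 and 31.5, so that it stood lowest at 200 ng/mL in each of the 3 pools and below vehicle at 50 ng/mL in each. At 12 h it read 54.0, 38.7 and 43.4 with AMH 200 ng/mL and 71.5, 43.3 and 59.6 with vehicle, a difference of -0.26 ± 0.19 (adjusted p = 0.518). The probe sets were named after their values were seen. Which transcripts of Ifngr2 each one reads was not tested.

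**Figure D2:**
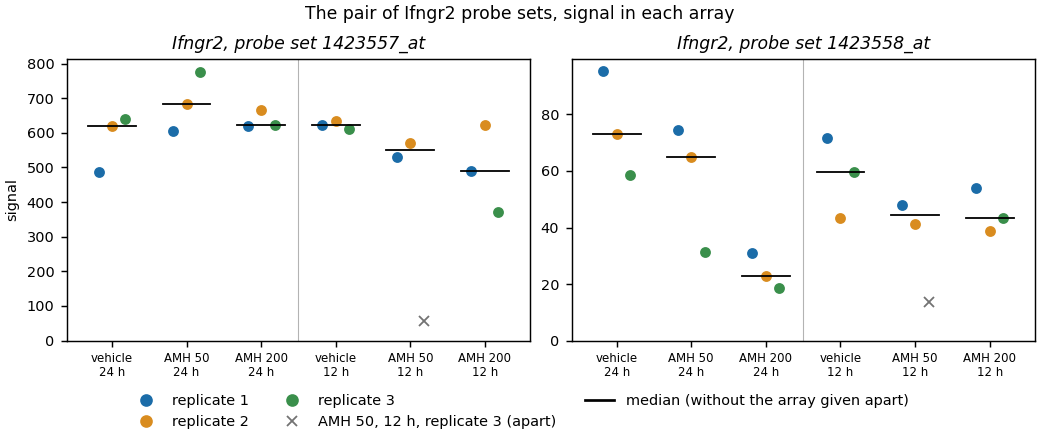
Signal (y axis, linear, from 0) of the pair of Ifngr2 probe sets in each array, by dose within 24 h and then 12 h (x axis, dose in ng/mL). Points are arrays coloured by replicate, lines are medians, and the cross is the array that stood apart. The right-hand probe set reads 31.1, 22.7 and 18.5 in the AMH 200 ng/mL arrays of 24 h and 95.5, 73.1 and 58.7 in their vehicle arrays, while the left-hand one overlaps between these groups.

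Of the transcription factors, Stat2, Irf1, Irf7 and Irf9 were tested and Irf8 was below the filter. Their estimates for AMH 200 ng/mL at 24 h were all 4 below 0, between -0.14 and -0.04, beside 46.6% of all probe sets below 0. Irf7, which amplifies the type I response, had 18.0, 24.5 and 47.4 in AMH 200 ng/mL arrays against 38.4, 31.6 and 28.9 in vehicle arrays, and Irf9, the DNA-binding partner of Stat2, had 91.9, 94.6 and 138 against 121, 107 and 131. The groups overlapped for Irf7 and for Irf9, and their pools differed in sign.

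Of the 13 antiviral effectors tested, 9 had estimates below 0 at AMH 200 ng/mL for 24 h, beside 46.6% of all probe sets, with a median of -0.17. At 50 ng/mL 1 was below 0, beside 51.3% of all probe sets, with a median of 0.08. Over all 28 members the direction at 50 ng/mL turned without the pool of replicate 2, as given above. Ifi35, an interferon-induced leucine zipper protein, was the member with an unadjusted p under 0.05 at 200 ng/mL. It had 626, 624 and 898 in the AMH 200 ng/mL arrays and 834, 841 and 963 in the vehicle arrays, lower in each of the 3 pools although the groups overlapped. The difference was -0.31 ± 0.13 (SE), with an unadjusted p of 0.0314 and an adjusted p of 1.00. Its next brightest probe set read 83.7, 100.4 and 96.2 with AMH 200 ng/mL and 129, 119 and 131 with vehicle, again lower in all 3 pools, with a difference of -0.38 ± 0.28 (adjusted p = 1.00).

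Oas1a, an enzyme that makes the oligoadenylate signal for RNA decay, had 19.8, 37.8 and 51.0 in the AMH 200 ng/mL arrays and 48.5, 72.0 and 49.3 in the vehicle arrays, with pool differences of -0.85, -0.71 and 0.04. The third pool went against the others, and the estimate of -0.51 ± 0.26 did not pass (adjusted p = 1.00). Samhd1, a nucleotide hydrolase that restricts retroviruses, had 319.6, 289 and 368 with AMH 200 ng/mL and 251, 277 and 311 with vehicle, higher in each pool, with differences of 0.33, 0.06 and 0.23 and overlapping groups. For the 5 antigen-processing genes and GTPases the estimates at 200 ng/mL and 24 h ran from -0.21 to 0.07. Psmb9, a subunit of the immunoproteasome, had 189, 216 and 177 with AMH 200 ng/mL and 179, 209.8 and 163 with vehicle.

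The AMH doses were also compared directly at 24 h, in the same pools. For 200 against 50 ng/mL 0 of 22518 probe sets (0%) and 0 of 28 members passed, with 938 probe sets and 1 member at an unadjusted p under 0.05. Of the 28 estimates, 22 were below 0, beside 46.1% of all probe sets, and the member median was -0.16, beside 0.02 over all probe sets. Without the pool of replicate 2 only 16 of 28 were below 0, with a median of -0.02, and without that of replicate 3 the median was -0.30. The pool medians were -0.17, -0.33 and 0.06, so the pool of replicate 3 lay on the other side of 0. In every pool 5 members were lower at 200 ng/mL, beside 11.6% of all probe sets, and 1 was higher, beside 17.2%. Of the 13 antiviral effectors 11 were below 0. Ifi35 had 626, 624 and 898 at 200 ng/mL and 898, 947 and 943 at 50 ng/mL, lower in each pool and without overlap between its groups, although the nearest arrays, at 898.2 and 898.3, were nearly equal. Its difference was -0.39 ± 0.13 (unadjusted p = 0.0095, adjusted p = 0.999). The AMH 50 ng/mL array of replicate 2 was high for several effectors: Rtp4, an interferon-induced chaperone of membrane receptors, read 249.8 there against 102 in its vehicle array, and Usp18, the protease that removes Isg15 from proteins, read 74.0 against 28.9.

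After 12 h again no probe set passed at either dose. At 200 ng/mL against vehicle 0 of 22518 probe sets (0%) and 0 of 28 members passed, and 2565 probe sets and 5 members had an unadjusted p under 0.05. This fit shares its spread with the arrays of 24 h, and its median SE over all probe sets was 0.204. On the arrays of 12 h alone the median SE was 0.252, with 809 probe sets and 2 members at an unadjusted limma p under 0.05. The member median was -0.12, beside -0.08 over all probe sets, and 18 of 28 estimates were below 0, beside 60.3% of all probe sets. The pool medians were 0.25, -0.25 and -0.20, with an SD of 0.276. In every pool 5 members were lower than vehicle, beside 14.4% of all probe sets, and 1 was higher, beside 8.77%. The higher member was Ifit1, which passed the filter only with the AMH 200 ng/mL arrays of 12 h, so nothing is read from it. Without the pool of replicate 3 the member median was -0.02, with 15 of 28 estimates below 0 beside 50.4% of all probe sets, and 0 probe sets passed. Leaving out the pool of replicate 2 let 226 probe sets and 1 member, Oasl2, pass in limma (adjusted p = 0.0411), with a member median of -0.04, and without that of replicate 1 the member median was -0.27 with 0 passing. Oasl2 had 331, 272 and 1062 with AMH 200 ng/mL and 201, 451 and 333 with vehicle, and its estimate of 0.54 was -0.01 without the pool of replicate 3. Surface epithelium markers summed to 977, 1192 and 6684 with AMH 200 ng/mL and 659.7, 1774 and 2153 with vehicle, and their part in these values was not tested. The members with an unadjusted p under 0.05 in the fit of both times were Ifngr2, Ifit1, Rsad2, Bst2 and Psmb8. Nothing is read from Ifit1 being among them, because of how it passed the filter.

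Ifit1, a protein that binds foreign messenger RNA caps, had signals of 479, 27.3 and 114 in the AMH 200 ng/mL arrays of 12 h and 28.7, 22.2 and 91.7 in the vehicle arrays. Replicate 1 with AMH stood far above every other array, and the remaining arrays of the groups overlapped. The pool differences were 3.47, 0.18 and 0.27, and the estimate was 1.31 ± 0.50 (SE), with an adjusted p of 0.432. Without the pool of replicate 1 the estimate was 0.22, and without that of replicate 3 it was 1.83. Ifit1 passed the filter only with the AMH 200 ng/mL arrays of 12 h included: without them its mean log2 value was 5.44, below a filter value of 5.47 taken over the same arrays. The AMH 50 ng/mL arrays of replicates 1 and 2 read 48.4 and 22.5.

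Rsad2 (viperin), an antiviral enzyme of the endoplasmic reticulum, had 390.0, 39.0 and 118 in the AMH 200 ng/mL arrays and 50.4, 40.6 and 89.1 in the vehicle arrays. Its pool differences were 2.61, -0.04 and 0.35, with an estimate of 0.97 ± 0.42 (adjusted p = 0.433), which was 0.15 without the pool of replicate 1 and 1.28 without that of replicate 3. Replicate 1 again held the highest value of all 17 arrays. Ifit3, a partner of Ifit1, read 116, 27.5 and 10.0 with AMH 200 ng/mL and 24.3, 33.0 and 66.3 with vehicle. Cxcl10, a chemokine that draws activated T cells and lies below the filter, read 104, 17.9 and 39.3 with AMH 200 ng/mL and 17.1, 24.2 and 28.9 with vehicle. Both had their highest value of the 17 arrays in replicate 1 with AMH 200 ng/mL, and both had replicates with AMH below their vehicle arrays. Ifit3 and Cxcl10 were named after their values were seen.

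Replicate 1 of AMH 200 ng/mL at 12 h held the highest of the 17 arrays for 7 of the 28 tested members, 5 of them among the 13 antiviral effectors. It held the highest value of 6.61% of all probe sets tested. Nothing is read from these counts. They include Ifit1, which passed the filter only with the AMH 200 ng/mL arrays of 12 h. They also include Ifit3, which passed only with the AMH 50 ng/mL arrays of 12 h. Other members were lower on the array of replicate 1 than on the vehicle array of its pool: Bst2 read 506 there against 654 in its vehicle array, and Psmb8 199 against 419. Oasl2 was higher there, at 331 against 201, without reaching its highest value of the 17 arrays, and Mx1, below the filter, read 4.90 against 3.04. The macrophage and leukocyte markers summed to 1411 on that array and 1413 on the vehicle array of its pool. The lymphocyte markers summed to 29.4 on it and remained below the filter.

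**Figure D3:**
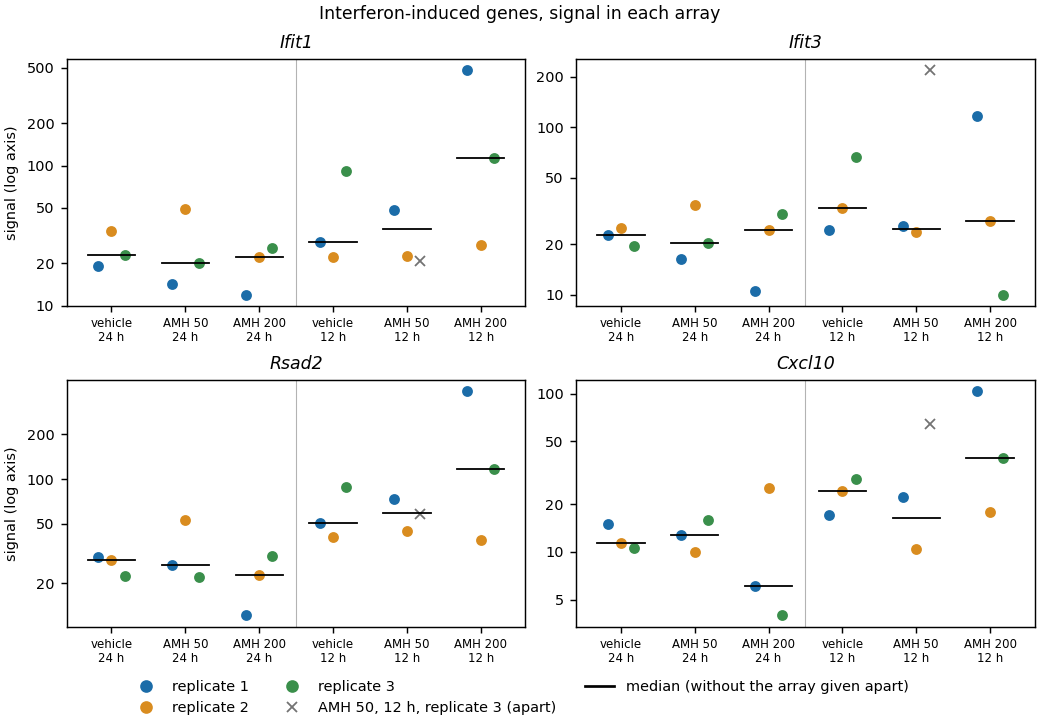
Signal (y axis, log) of Ifit1, Ifit3, Rsad2 and Cxcl10 in each array, by dose within 24 h and then 12 h (x axis, dose in ng/mL). Points are arrays coloured by replicate, lines are medians, and crosses are the array that stood apart. Replicate 1 of AMH 200 ng/mL at 12 h reads 479 for Ifit1 and 390 for Rsad2, above every other array drawn.

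Bst2 (tetherin), which holds budding virus at the cell surface, had 506, 242 and 343 in the AMH 200 ng/mL arrays of 12 h and 654, 303 and 650.3 in the vehicle arrays. It was lower in each of the 3 pools, with differences of -0.36, -0.30 and -0.89, and the groups overlapped. Its estimate was -0.52 ± 0.17 (SE) with an adjusted p of 0.432, while at 24 h the estimate was 0.00. At 50 ng/mL for 12 h the fitted estimate was 0.14, with pool differences of 0.09 and 0.37 in replicates 1 and 2. Psmb8, an immunoproteasome subunit like Psmb9, had 199, 161 and 139 with AMH 200 ng/mL and 419, 183 and 219 with vehicle. It too was lower in every pool, with differences of -1.02, -0.17 and -0.60 and an estimate of -0.60 ± 0.19 (adjusted p = 0.432). Without the pool of replicate 3 the Bst2 estimate was -0.33, and without that of replicate 1 the Psmb8 estimate was -0.39. A mean estimate of at least 0.5 below vehicle, with each pool below 0, was found for these 2 of 28 members and for 4.52% of all probe sets. A mean estimate of at least 0.5 above vehicle, with each pool above 0, was found for 1.45% of all probe sets, and Ifit1 met it, but nothing is read from that count because Ifit1 passed the filter through the AMH 200 ng/mL arrays. The brighter Ifngr2 probe set had 489.8, 623 and 370.2 with AMH 200 ng/mL and 623, 633 and 611 with vehicle, lower in every pool, with an estimate of -0.35 ± 0.14 (adjusted p = 0.432), or -0.18 without replicate 3. Stat2, a subunit of the factor that binds the ISRE, overlapped between the groups at its brighter probe set, with 141, 79.5 and 144 with AMH 200 ng/mL and 112, 97.3 and 96.5 with vehicle. Its dimmer probe set read 118, 54.7 and 6.47 with AMH 200 ng/mL and 119, 89.9 and 129 with vehicle, so the probe sets parted mainly in replicate 3.

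At 50 ng/mL for 12 h the comparison rests on 2 pools. For this dose 0 of 22518 probe sets (0%) and 0 of 28 members passed, with 1285 probe sets and 0 members at an unadjusted p under 0.05. The member median was 0.00 with pool medians of 0.04 and -0.06, and 14 estimates lay on each side of 0, beside 57.9% of all probe sets below 0. Both pools agreed on a lower value for 5 members, beside 28.6% of all probe sets, and on a higher value for 9, beside 26.1%. With a fitted estimate of at least 0.5 as well, there were 1 member below vehicle, Gbp3, beside 6.24%, and 1 above it, Gbp2, beside 1.88%. Without the pool of replicate 3 neither estimate reached 0.5 in size, so nothing is read from these counts. Gbp3, an interferon-induced guanylate-binding GTPase, had 37.0 and 29.7 with AMH 50 ng/mL and 45.2, 61.3 and 62.7 with vehicle, an estimate of -0.74 ± 0.40 (adjusted p = 0.877). It was lower in both pools, and without the pool of replicate 3, where this dose has no usable array, the estimate was -0.48. Gbp2, of the same family, had 90.3 and 173 with AMH 50 ng/mL and 88.2, 117 and 136 with vehicle, an estimate of 0.50 ± 0.33 (adjusted p = 0.88). The Gbp2 estimate was 0.27 without the pool of replicate 3, and -0.39 when the array that stood apart was kept in. The dimmer Gbp2 probe set, also above the filter, did not show this rise. It read 75.006 and 131.998 with AMH 50 ng/mL in replicates 1 and 2, and 71.998 and 132.65 in their vehicle arrays.

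Taking both times together, AMH 200 ng/mL against vehicle gave 0 of 22518 probe sets (0%) and 0 of 28 members past the threshold, with 767 probe sets and 2 members at an unadjusted p under 0.05. The member median was -0.06 and 19 of 28 estimates were below 0, beside 58.3% of all probe sets. Ifi35 was the member that was lower than vehicle in all 6 pools, a pattern that 1.4% of all probe sets showed, and 0 members were higher in all 6, beside 0.853%. At 12 h it had 697, 1221 and 944 with AMH 200 ng/mL and 713, 1502 and 1004 with vehicle, and its mean difference over both times was -0.22 ± 0.09 (unadjusted p = 0.0283, adjusted p = 0.95). Ifi35 stood at -0.24 without the pool of replicate 3 of 12 h. These values are from its brightest probe set, and its dimmer ones did not keep the pattern at 12 h. In replicate 1 the next brightest read 138.3 with AMH 200 ng/mL and 133.8 with vehicle. It was lower with AMH in replicates 2 and 3. The dimmest read 133.2 and 78.9 with AMH in replicates 1 and 2, above 82.2 and 66.2 with vehicle. It was lower with AMH in replicate 3. The other member with an unadjusted p under 0.05 was Psmb8, at -0.33 ± 0.14 (adjusted p = 0.95).

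Whether the effect of AMH differed between the times was tested as an interaction. For 200 ng/mL 0 of 22518 probe sets (0%) and 0 members passed, with 1618 probe sets and 1 member at an unadjusted p under 0.05, and for 50 ng/mL the counts past the threshold were also 0 (0%) and 0, with 733 and 1. Ifngr2, read at its brighter probe set, was that member for both doses. Its 24 h effect was above the 12 h effect by 0.49 ± 0.19 at 200 ng/mL (adjusted p = 0.628) and by 0.51 ± 0.21 at 50 ng/mL (adjusted p = 0.999). These contrasts share the vehicle arrays. At 200 ng/mL the dimmer Ifngr2 probe set went the other way, further below vehicle at 24 h than at 12 h, as given above. Of the 28 estimates 12 were below 0 for 200 ng/mL, beside 39.9% of all probe sets, and 11 for 50 ng/mL, beside 45.5%. For Ifit1 the 200 ng/mL effect at 24 h minus that at 12 h was -1.51 ± 0.70 (adjusted p = 0.628).

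**Figure D4:**
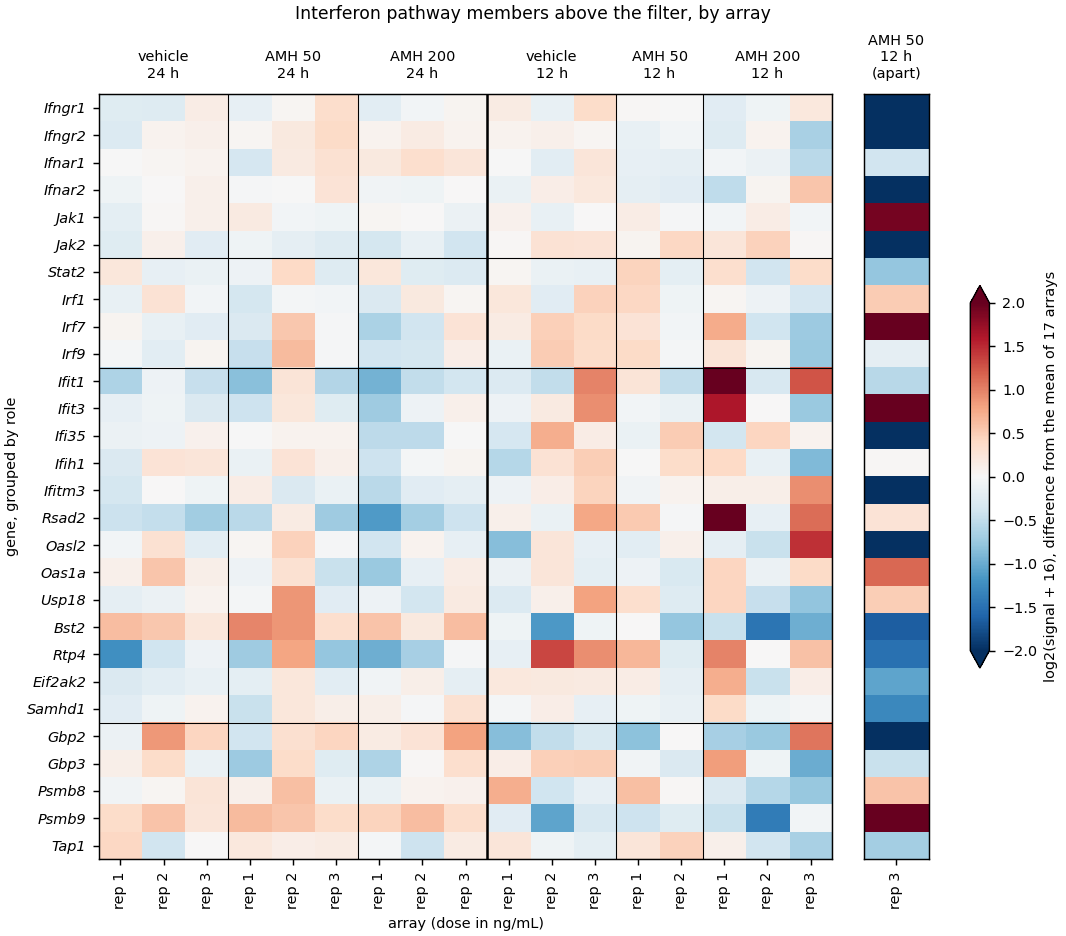
Values of the 28 tested genes (rows, grouped by role) in each array (columns, by dose in ng/mL within 24 h and then 12 h), as log2(signal + 16) minus the gene's mean over 17 arrays. The colour scale runs between -2 and 2, with values beyond it at the end colours, and the column on the right is the array that stood apart. Replicate 1 of AMH 200 ng/mL at 12 h is dark red for Ifit1, Ifit3 and Rsad2. Among the 17 arrays, Bst2 and Psmb9 are red at 24 h and white to blue at 12 h.

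Between the culture times, without AMH, the members did not pass individually, although the arrays as a whole did differ. In the vehicle arrays of 24 h against 12 h, 292 of 22518 probe sets (1.3%) passed and 0 of 28 members did, with 4180 probe sets and 6 members at an unadjusted p under 0.05. The member median was -0.12, and 18 of 28 estimates were below 0, beside 48.3% of all probe sets and an all-probe-set median of 0.01. With the replicate number as a block 642 probe sets (2.85%) and 1 member, Rtp4, passed. The times were cultured from different pools, and the summed granulosa markers were 6869.5 to 6979 in the vehicle arrays of 24 h and 2982 to 5583 in those of 12 h. In the same order, surface epithelium markers summed to 1960.1 to 4088 and 659.7 to 2153, and theca markers to 3623 to 3862 and 1787 to 3671. Endothelial markers summed to 621 to 1465 and 1054 to 3900, macrophage and leukocyte markers to 1141 to 2653 and 1413 to 2099. Oocyte markers ran from 1016 to 5110 and from 219 to 7147. The part of these cell types in the time differences was not tested.

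The members with the largest values at 24 h relative to 12 h were Psmb9, Gbp2 and Bst2, none of them past the threshold in the vehicle arrays. Psmb9 had 179, 209.8 and 163 in the vehicle arrays of 24 h and 114, 57.1 and 106 in those of 12 h, without overlap, a difference of 0.92 ± 0.26 (SE, adjusted p = 0.116). Bst2 had 1071, 1013 and 812 at 24 h and 654, 303 and 650.3 at 12 h, also without overlap, with 0.90 ± 0.28 (adjusted p = 0.15), or 0.55 without replicate 2 of 12 h. For these genes all 9 arrays of 24 h, AMH included, lay above all 8 of 12 h, as they did for 5.11% of all probe sets. Gbp2 had 156, 326 and 237 at 24 h and 88.2, 117 and 136 at 12 h, with 0.94 ± 0.28 (adjusted p = 0.131), and its vehicle groups did not overlap although 377 in replicate 3 of AMH 200 ng/mL at 12 h was its highest array. Vehicle groups without overlap and higher at 24 h were thus found for 3 of 28 members, beside 13.5% of all probe sets.

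Several induced effectors had lower values at 24 h, again short of the threshold in the vehicle arrays. Rtp4 had 50.1, 102 and 127 in the vehicle arrays of 24 h and 122, 373 and 278 in those of 12 h, which overlapped, with a difference of -1.27 ± 0.42 (adjusted p = 0.162, and 0.0386 with the replicate block). Rsad2 had 30.0, 28.4 and 22.2 at 24 h and 50.4, 40.6 and 89.1 at 12 h, without overlap, with -0.78 ± 0.26 (adjusted p = 0.171). Eif2ak2 (PKR), the kinase that stops translation on double-stranded RNA, had 202, 213 and 223 at 24 h and 291, 289 and 287 at 12 h, again without overlap, with -0.42 ± 0.16 (adjusted p = 0.204). Irf7 had 38.4, 31.6 and 28.9 at 24 h and 42.9, 57.2 and 52.7 at 12 h, the third member whose vehicle groups did not overlap in this direction, which 11.5% of all probe sets did. Over all 9 against 8 arrays 0 of 28 members were without overlap and lower at 24 h, beside 2.93% of probe sets. Ifit1 had 19.1, 34.3 and 23.1 at 24 h and 28.7, 22.2 and 91.7 at 12 h in vehicle, where only replicate 3 of 12 h stood high.

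The spread shared by the doses of a pool was used in an alternative chosen after seeing the data, in which each pool was averaged over its doses and 3 pools of 24 h were set against 3 of 12 h. There 2593 of 22518 probe sets (11.5%) and 4 of 28 members passed in limma, 2 of them higher at 24 h (7.52% of all probe sets) and 2 lower (4%). With the replicate number as a block 2761 probe sets (12.3%) and 4 members passed. Bst2 was higher at 24 h by 1.16 (adjusted p = 0.0190) and Psmb9 by 0.94 (adjusted p = 0.0308), while Rtp4 differed by -0.99 (adjusted p = 0.0397) and Rsad2 by -1.20 (adjusted p = 0.0459). Leaving out any 1 of the 24 h pools left 0 members past the threshold. Leaving out a 12 h pool left 2, 3 or 5, with Bst2 among them each time. The AMH arrays enter these means, so they do not describe vehicle alone.

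**Figure D5:**
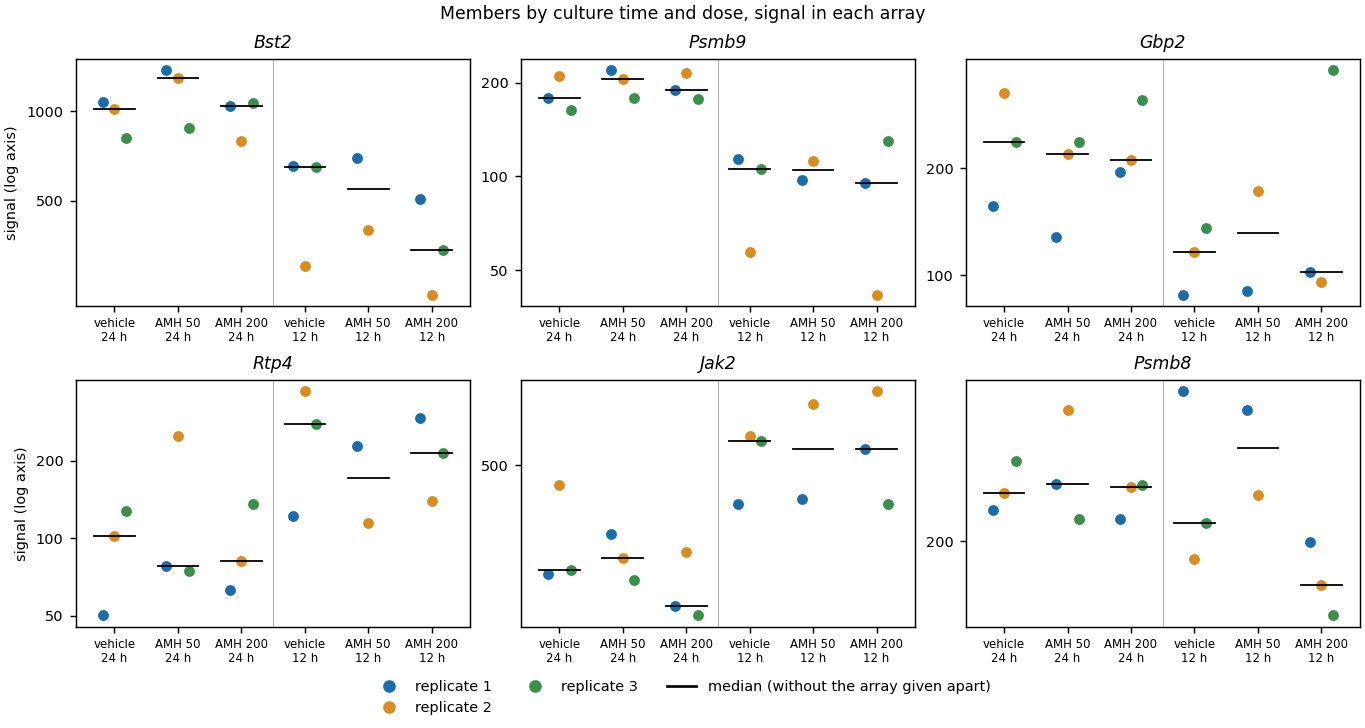
Signal (y axis, log) of Bst2, Psmb9, Gbp2, Rtp4, Jak2 and Psmb8 in each of 17 arrays, by dose within 24 h and then 12 h (x axis, dose in ng/mL); points are arrays coloured by replicate and lines are medians. The array that stood apart is not drawn. For Bst2 and Psmb9 every array of 24 h lies above every array of 12 h, as for 5.11% of all probe sets, and for Rtp4 and Psmb8 the times overlap.

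The members differed in how far they varied over the 17 arrays: Jak1 varied little, with its highest array 1.30 times its lowest, whereas Ifit1 read 12.0 to 479, its lowest values below the filter signal. Jak1 read 677 to 879 (median 778), Ifngr1, the ligand-binding chain for interferon gamma, 92.5 to 151 (median 113), and Jak2 332 to 612 (median 449). Among the transcription factors Irf1, which drives many interferon gamma targets, read 205 to 375 (median 257), and Irf7 read 16.0 to 71.7 (median 35.5). Of the effectors, Ifitm3, which blocks virus entry, read 1584 to 4435 (median 2209.5), Ifih1 (MDA5), a sensor of double-stranded RNA, 37.0 to 121 (median 84.8), and Oasl2 201 to 1062 (median 364). The highest Oasl2 value was in replicate 3 of AMH 200 ng/mL at 12 h. Tap1, a subunit of the peptide transporter for antigen presentation, read 78.4 to 188 (median 143).

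The 5 members below the filter were Mx1, Mx2, Ifit2, Irf8 and Cxcl10. They include the classical induced genes Mx1 and Mx2, GTPases that block virus replication. Mx1 read 0.610 to 8.37 (median 4.48) and Mx2 0.267 to 17.3 (median 6.78), while Ifit2 read 8.34 to 54.0 (median 17.7) and Irf8, a factor of myeloid cells, 4.13 to 64.9 (median 27.4). Of the tested members, Ifit3 had a median of 24.4 and Ifit1 of 25.8, close to the filter signal of 27.8, so their lower values in most arrays are near the level at which probe sets were left out. Ifit3 would not have passed without the AMH 50 ng/mL arrays of 12 h, among them the array that stood apart. Leaving out any other single group kept all 28 members above the filter, except Ifit1 as given above.

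Of 68 other genes of the interferon pathway, 58 were measured and 43 tested, and 0 passed in any of the comparisons of dose, of time or of their interaction. At AMH 200 ng/mL for 24 h 12 estimates were above 0 and 31 below, beside 46.6% of all probe sets below 0. Their median was -0.09, and 2 had an unadjusted p under 0.05. These were Ifitm1, a relative of Ifitm3, at -0.77 ± 0.21 (SE, adjusted p = 1.00), and Sting1, the adaptor for cytosolic DNA sensing, at -0.44 ± 0.18 (adjusted p = 1.00). Ifitm1 was also below vehicle at 12 h, with estimates of -0.66 at 50 ng/mL and -0.49 at 200 ng/mL, in comparisons that share their vehicle arrays. At AMH 50 ng/mL for 24 h 20 estimates were above 0 and 23 below, beside 51.3% of all probe sets below 0, with none at an unadjusted p under 0.05. At 12 h Tlr3, a receptor for double-stranded RNA, differed by 0.80 ± 0.24 at AMH 200 ng/mL (adjusted p = 0.432). Between the vehicle arrays of 24 h and 12 h, Socs3, a feedback inhibitor of Janus kinases, differed by -0.70 ± 0.18 (adjusted p = 0.0974) and Tap2, the partner of Tap1, by 0.86 ± 0.23 (adjusted p = 0.103).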

How the data were processed

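Follicle RNA was amplified and hybridised to 18 arrays. The deposited values are linear intensity signals made by the authors with MAS5, per the submitters' processing notes, and the 2% trimmed mean was 150 on each array in the values. Arrays have no read depth, so their number limits the precision. Of 45101 probe sets 34945 carried 1 gene name, 932 several and 9160 none in the platform annotation, which can be old, and 64 were controls.

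Signals were taken as log2(signal + 16), so differences of dim genes are understated. Control probe sets were dropped, and those whose mean log2 value was over the 50th percentile (signal 27.8) were tested with limma 3.58.1 in R 4.3.3 (lmFit, eBayes with trend, two-sided, Benjamini-Hochberg over 22518, threshold 0.05). Dose comparisons used 17 arrays with the pool as a block, since the series' design text calls arrays comparable within an experiment. The time comparison used the 6 vehicle arrays. Pool mates deviated together, with correlations of 0.067 to 0.497, 15 of 16 of them over 0.1. Deviations from the group mean were also compared between the vehicle arrays of the 2 times. Those of the same number correlated at 0.207 to 0.318, and best with their own number in 3 of 3. The labels do not say that a number is shared between the times. The fit with the replicate number as a block is therefore given beside the time result. The labels call the replicates separate pools.

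The code was tested on simulated data. Members, gene lists, markers and motifs were chosen with earlier results of these data known. Values in every array are given for tested members with an absolute difference of at least 0.5 and the same sign in every pool, in any comparison, and for others named after their values were seen. Alternatives changed the normalization, pseudocount, filter, variance trend, array weights, block, arrays and probe set per gene. Figures used matplotlib 3.10.9.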

Additional observations from a re-analysis of the deposited data

How the results depend on the processing

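With array weights, a fit whose weights did not fully converge, AMH 200 ng/mL against vehicle at 24 h gave 8 probe sets, AMH 50 ng/mL at 24 h gave 1011 probe sets and 1 member (Ifngr2), AMH 200 against 50 ng/mL gave 513 probe sets, and 24 h against 12 h gave 778. The member medians under array weights were -0.04 for AMH 50 ng/mL at 24 h, -0.06 for AMH 200 against 50 ng/mL, 0.01 for AMH 200 ng/mL over both times, 0.06 for AMH 50 ng/mL at 12 h, -0.09 for AMH 200 ng/mL at 24 h, 0.17 for AMH 200 ng/mL at 12 h, -0.25 for the AMH 200 ng/mL effect at 24 h minus that at 12 h, and -0.12 for the same difference at 50 ng/mL. For AMH 50 ng/mL at 12 h the member median was -0.29 with all 18 arrays, 0.15 with median centring, -0.11 with no filter and -0.089 with no replicate block, and Gbp2 reversed to -0.39 with all 18 arrays. With all 18 arrays the AMH 50 ng/mL effect at 24 h minus that at 12 h had a member median of 0.31. With only the arrays of 24 h, AMH 50 ng/mL gave 1 probe set. Fitted on the arrays of its own time, AMH 200 ng/mL had 981 probe sets at an unadjusted p under 0.05 at 24 h and 809 at 12 h, and AMH 50 ng/mL 1303 and 525. The cause of these shifts was not tested.

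For 24 h against 12 h the count of probe sets was 151 with a pseudocount of 1, 60 with no filter, 132 with the filter at the 75th percentile, 642 with the replicate block (1 member), 2593 with pool means (4 members) and 2761 with pool means and the replicate block (4 members). Leaving out 1 vehicle array gave 0 to 555 probe sets and 0 members, with 0 without replicate 2 or replicate 3 of 24 h, 1 without replicate 1 of 24 h and 35 without replicate 2 of 12 h. Leaving out 1 pool from the pool means gave 380 to 4359 probe sets and 0 to 5 members. For 12 h these were 3188 (2 members), 1783 (3) and 4359 (5) without replicates 1, 2 and 3, and for 24 h 380, 606 and 429 (0 each).

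Leaving out 1 pool at a time gave, for AMH 200 ng/mL at 12 h, 0 to 226 probe sets and 0 to 1 members, the highest (Oasl2 as the member) without replicate 2. It gave 0 to 2 probe sets for AMH 200 ng/mL over both times, 0 to 3 for the AMH 50 ng/mL difference between times and 0 to 4 for AMH 50 ng/mL at 12 h, where the member median ran from -0.13 to 0.04. For AMH 50 ng/mL at 24 h the member median ran from -0.054 (without replicate 2) to 0.173. With quantile normalization and without the variance trend, no member passed in any comparison. The mean of each member's probe sets was taken only of the differences, for the member median, and was not tested.

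The precision is set by 3 pools a time, and by 2 for AMH 50 ng/mL at 12 h. Genes near the filter, such as Ifit1 and Ifit3, are read close to background in most arrays.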
